A study of Mus musculus with 384 samples.

Results

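Among 94 high fat mice of an outbred stock, 23 kept the highest liver levels of Sqle, the gene of squalene epoxidase, and these 23 mice are compared here with the 23 high fat mice with the lowest Sqle. Mice were selected on the Sqle value itself, ranked separately within the name letters F (female, 48 mice) and M (male, 46 mice), and the top 25% and bottom 25% of each letter were taken, which gave 12 F and 11 M mice in each class. The other 48 high fat mice lay between, and 98 mice on chow completed the 192 mice. For the same contrast on the other diet, the chow mice were ranked in the same way, which gave 24 with high Sqle and 24 with low Sqle (12 F and 12 M in each class).

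All mice were wild type J:DO Diversity Outbred animals of 26 weeks, an outbred stock in which each mouse is a genetically different individual, so no mouse repeats another. The 23 high Sqle and 23 low Sqle mice had eaten a diet with 22% fat by weight, and the chow mice a diet with 6% fat. The generation label was G11L1 in 14 of 23 high Sqle and 10 of 23 low Sqle mice, and G11L2 in the others. Libraries of mRNA from bulk liver were sequenced, so in every result fewer cells of a type and less RNA per cell cannot be told apart.

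Cholesterol is made from acetyl-CoA through the mevalonate pathway, whose products are joined to squalene and then closed and trimmed in a chain of sterol enzymes. Sqle carries out the first oxygen-dependent step after squalene. The transcription factor SREBP2 raises these genes together when sterol in the membrane of the endoplasmic reticulum is low, and the INSIG proteins hold it back when sterol is high. Its relative SREBP1c drives fatty acid synthesis in liver.

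Sqle itself chose the classes, so its values are a description. Its gene lies on chromosome 15 (GRCm38, 59315077 to 59331192, plus strand). The Sqle signal, an upper-quartile normalized value, was 6.40 to 26.5 (median 14.8) in high Sqle mice, 0.316 to 3.27 (median 1.01) in low Sqle mice and 2.31 to 54.2 (median 17.8) in chow mice. The lowest high Sqle mice stood at 11.6711 (F) and 6.40 (M), and the nearest mice outside at 11.6681 and 6.15. The highest low Sqle mice stood at 3.27 (F) and 1.13 (M), and the nearest outside at 3.44 and 1.32. All 23 high Sqle mice lay within the range of the chow mice, and so did the highest low Sqle mouse (3.27). The median of the high Sqle mice was below that of chow. The lowest high Sqle M mouse (6.40) lay below the highest M mouse of the low Sqle chow class (10.6). The lowest high Sqle F mouse (11.6711) lay just above the highest F mouse of that class (11.55).

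The upstream stretches of some sterol genes are shown first. Hmgcs1, Idi1, Cyp51, Mvd, Mvk and Mmab all rose in the high fat comparison that follows, and Abcg5 and Abcg8, which pump sterol out, both fell in it. They are the 250 bases before the RefSeq start of 4 genes, and 2 stretches shared by pairs of genes that are read in opposite directions (GRCm38.p6, RefSeq). Capitals mark exact matches on either strand to TCACNCCAC, a form of the sterol regulatory element to which SREBP proteins bind. They also mark CCAAT, the box of the factor NF-Y (ATTGG on the other strand). The positions are chr13:119690101-119690350 (plus strand) for Hmgcs1, chr13:8885356-8885605 (plus) for Idi1, chr5:4104698-4104947 (minus) for Cyp51 and chr8:122443423-122443672 (minus) for Mvd. The shared stretches are chr5:114444028-114444268 between Mmab and Mvk and chr17:84683012-84683120 between Abcg5 and Abcg8, both written on the plus strand.
Hmgcs1: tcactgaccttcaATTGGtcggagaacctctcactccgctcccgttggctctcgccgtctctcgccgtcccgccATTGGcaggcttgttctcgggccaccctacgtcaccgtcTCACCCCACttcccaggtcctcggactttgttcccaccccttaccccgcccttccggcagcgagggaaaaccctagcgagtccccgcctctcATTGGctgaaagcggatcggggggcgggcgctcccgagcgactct
Idi1: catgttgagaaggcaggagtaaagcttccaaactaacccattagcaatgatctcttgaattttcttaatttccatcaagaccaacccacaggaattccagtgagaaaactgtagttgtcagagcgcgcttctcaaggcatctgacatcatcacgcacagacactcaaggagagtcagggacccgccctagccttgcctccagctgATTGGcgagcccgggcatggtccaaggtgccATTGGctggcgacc
Cyp51: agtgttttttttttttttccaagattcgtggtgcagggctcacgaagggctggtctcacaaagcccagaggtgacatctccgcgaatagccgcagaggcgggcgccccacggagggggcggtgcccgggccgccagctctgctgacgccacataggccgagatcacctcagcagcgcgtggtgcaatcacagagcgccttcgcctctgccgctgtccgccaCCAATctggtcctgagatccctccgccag
Mvd: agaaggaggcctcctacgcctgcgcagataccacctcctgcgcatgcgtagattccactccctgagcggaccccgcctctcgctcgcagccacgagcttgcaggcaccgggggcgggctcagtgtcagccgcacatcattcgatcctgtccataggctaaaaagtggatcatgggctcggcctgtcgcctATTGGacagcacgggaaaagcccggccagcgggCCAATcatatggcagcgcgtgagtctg
Mvk and Mmab: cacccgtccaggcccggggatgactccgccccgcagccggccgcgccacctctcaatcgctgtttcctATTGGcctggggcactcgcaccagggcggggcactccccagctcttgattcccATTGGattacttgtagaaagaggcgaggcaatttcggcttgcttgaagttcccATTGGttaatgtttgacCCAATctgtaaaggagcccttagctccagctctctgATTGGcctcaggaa
Abcg8 and Abcg5: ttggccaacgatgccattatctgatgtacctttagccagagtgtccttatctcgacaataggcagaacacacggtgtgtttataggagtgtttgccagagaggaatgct

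Of the 20 enzyme genes of cholesterol synthesis other than Sqle, 16 had upstream sequence in this RefSeq table. CCAAT stood in the 250 upstream bases of 15 of the 16 genes, against 37.5% of all 27025 genes and 33.8% of all 32851 promoters of that length. TCACNCCAC stood in 1 of the 16 genes (Hmgcs1), against 1.22% of all genes and 1.05% of promoters. The stretch between Mmab and Mvk held 5 CCAAT boxes, and the stretch between Abcg5 and Abcg8 held no match to either motif. A match is a run of letters and was not tested as a binding site. Sterol regulatory elements that differ from TCACNCCAC by a base were not searched for, so a stretch without a match may still hold one.

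The first comparison set the 23 high Sqle against the 23 low Sqle high fat mice, with letter and generation as covariates. Genes of cholesterol synthesis were the clearest group: 19 of 20 rose, by a median of 1.25 on the log2 scale, which here is log2(signal + 0.0629), where 0.0629 is the pseudocount. Across the liver, limma called 1275 of 14601 genes (8.73%) at an adjusted p under 0.05, 370 higher (2.53%) and 905 lower (6.2%), and the median gene stood at -0.064. The split of the calls depended on scaling: rescaling by median of ratios gave 535 higher and 318 lower genes, and quantile normalization 457 and 446. The median-of-ratios factor of a mouse, which measures where most of its genes lie, was 0.954 ± 0.058 in high Sqle and 1.00 ± 0.056 in low Sqle mice (SD, n = 23 each, 2-sided permutation p = 0.0077, adjusted 0.0616 over 8 tests of make-up). Its part in the 905 lower calls was not tested. With depth and this factor as covariates, the 2 library measures meant by that term below, 142 genes were higher and 33 lower.

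Idi1, the isopentenyl diphosphate isomerase (chromosome 13, 8885501 to 8892451), separated the classes completely. Its signal was 12.3 to 47.1 (median 20.7) in high Sqle mice and 2.31 to 12.0 (median 6.44) in low Sqle mice. It was the only gene of 14601 (0.00685%) whose values in high Sqle mice all lay above those in low Sqle mice, and for no gene (0.0%) did they all lie below. Its difference was 1.81 ± 0.17 on the log2 scale (limma, ± SE, adjusted p = 3.94e-10).

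Every gene of the mevalonate pathway was higher in high Sqle mice (8 of 8, median 1.46). Mvd, the decarboxylase that forms isopentenyl diphosphate, had a signal of 1.31 to 15.1 (median 5.08) in high Sqle mice and 0.294 to 2.94 (median 0.697) in low Sqle mice. The ranges overlapped, with 17 high Sqle mice above every low Sqle mouse. The difference was 2.53 ± 0.24 (limma, adjusted p = 9.06e-10), or 5.77-fold.

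Fdps, which builds farnesyl diphosphate, had a signal of 16.1 to 90.6 (median 44.7) in high Sqle mice and 2.68 to 33.9 (median 8.37) in low Sqle mice. Again 17 high Sqle mice lay above every low Sqle mouse, and the difference was 2.14 ± 0.24 (limma, adjusted p = 3.08e-08). Hmgcs1, the HMG-CoA synthase, had 25.4 to 102 (median 50.4) in high Sqle mice and 7.19 to 53.2 (median 17.6) in low Sqle mice. It rose by 1.46 ± 0.18 (limma, adjusted p = 2.33e-07), with all 23 high Sqle mice above the median of the low Sqle mice and 11 above every low Sqle mouse. Further rises in the pathway were those of Pmvk, the phosphomevalonate kinase (1.27 ± 0.19), Acat2, the acetoacetyl-CoA thiolase (0.94 ± 0.14), and Mvk, the mevalonate kinase (0.68 ± 0.11).

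**Figure D1:**
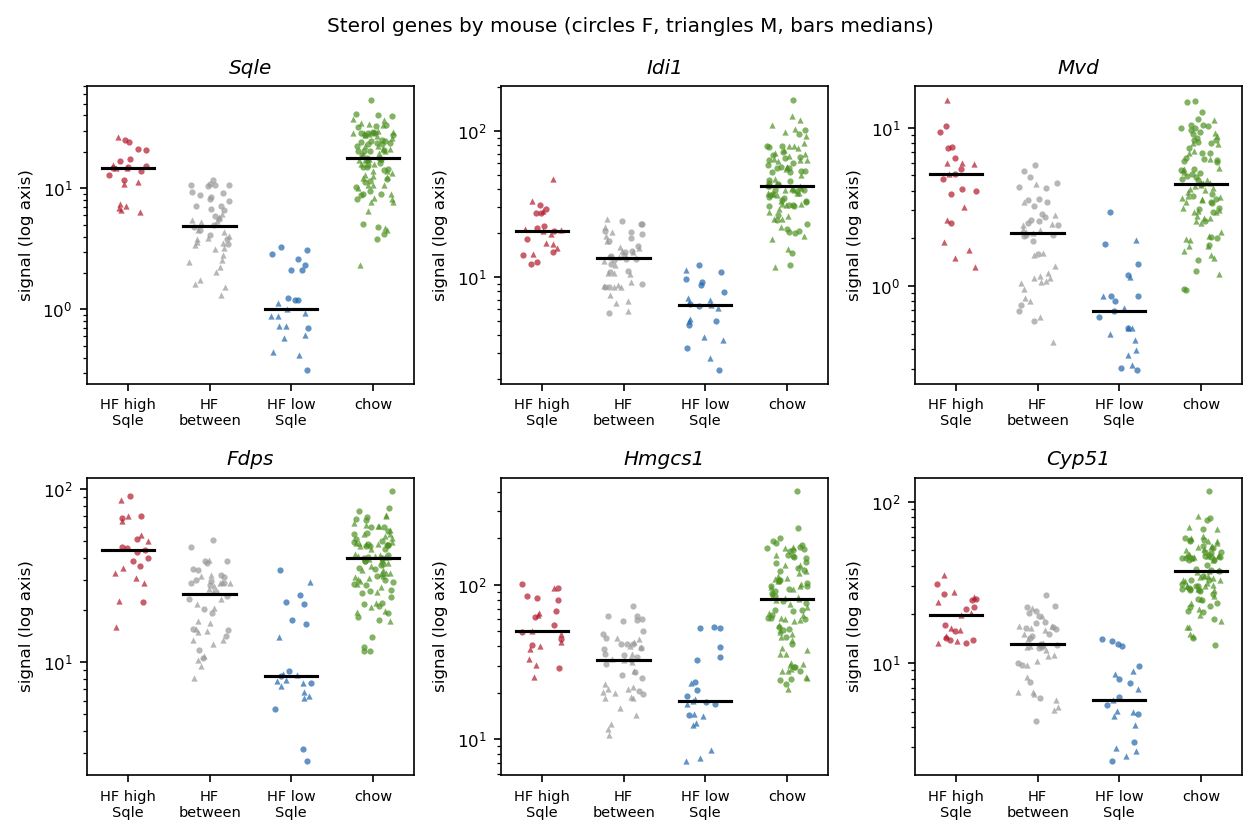
Upper-quartile normalized signal (log axis) of Sqle and 5 sterol enzyme genes in each mouse, for high fat mice with high Sqle, between and with low Sqle, and for chow mice. Circles are F mice, triangles M mice and bars medians. Sqle chose the classes, Idi1 does not overlap between high and low Sqle mice, and the medians of Idi1 (20.7) and Cyp51 (19.9) in high Sqle mice lie below those of chow (42.0 and 37.4).

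After squalene, 11 of 12 genes rose (median 0.77). Cyp51, the lanosterol demethylase, had a signal of 13.2 to 35.1 (median 19.9) in high Sqle mice and 2.46 to 14.2 (median 5.90) in low Sqle mice. The ranges met only at their edges: 18 high Sqle mice lay above every low Sqle mouse and 21 low Sqle mice below every high Sqle mouse. The difference was 1.71 ± 0.18 (limma, adjusted p = 7.36e-09).

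Nsdhl (1.63 ± 0.17) and Msmo1 (1.62 ± 0.18), which take part in removing methyl groups from the sterol ring, also rose. Dhcr7, which makes the final reduction of one branch, rose by 1.43 ± 0.17, and Lss, which closes the ring, by 1.22 ± 0.15. Smaller rises were those of Fdft1, the squalene synthase (0.81 ± 0.11), Sc5d (0.74 ± 0.16), Tm7sf2 (0.61 ± 0.13), Hsd17b7 (0.59 ± 0.12) and Lbr (0.30 ± 0.075). Ebp, the sterol isomerase, did not pass the test (0.05 ± 0.094, limma adjusted p = 0.785), with medians of 33.2 in high Sqle and 32.1 in low Sqle mice.

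All 8 genes of the mevalonate pathway were called in each of the 13 alternative fits. After squalene 11 of 12 were called in 12 of them, and 10 with library measures as covariates, where Lbr was lost (adjusted p = 0.0802). With a split of the mice at the median of Sqle the median difference was 0.98 in the mevalonate pathway and 0.55 after squalene.

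Counted mouse by mouse, the 20 sterol genes moved as a block but not evenly. A high Sqle mouse had 11 to 20 of the 20 genes above the median of the high fat mice of its letter (median 17), and a low Sqle mouse 0 to 16 (median 1). The counts overlapped in 2 low Sqle mice, which had more than 10 of the 20 genes above that median. All 20 genes were above it in 2 high Sqle mice, and none in 8 low Sqle mice.

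Of the 12 genes that control SREBP, 2 rose and 1 fell, beside 2.53% of all genes higher and 6.2% lower. Insig1, itself a target of SREBP2, had a signal of 32.5 to 178 (median 83.5) in high Sqle mice and 12.7 to 91.2 (median 30.4) in low Sqle mice, and rose by 1.22 ± 0.20 (limma, adjusted p = 8.22e-05). Srebf2, the gene of SREBP2, had 8.80 to 14.5 (median 11.4) in high Sqle mice and 5.98 to 12.9 (median 8.71) in low Sqle mice, and rose by 0.38 ± 0.065 (adjusted p = 0.000291). In both genes the classes overlapped, yet all 23 high Sqle mice lay above the median of the low Sqle mice. Mbtps1, a protease that releases SREBP, was lower by a small step (-0.20 ± 0.053, adjusted p = 0.0151), a call lost with terciles, with a split at the median and with library measures as covariates. Srebf1, which encodes SREBP1, did not pass (-0.06 ± 0.16, adjusted p = 0.834), nor did the sensor gene Scap (-0.04 ± 0.087, adjusted p = 0.779).

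Of 9 genes of sterol uptake and transfer, 5 rose, beside 2.53% of all genes. Among them were Tmem97 (0.66 ± 0.12), Stard4, a sterol carrier (0.55 ± 0.15), and Npc2, a lysosomal sterol carrier (0.37 ± 0.083). Stard4 was lost with a split at the median (adjusted p = 0.0582), and Npc2 with library measures as covariates (adjusted p = 0.108).

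None of the 10 genes of the isoprenoid branches, which use the same precursors for ubiquinone and protein prenylation, was called. Their median was -0.068, beside -0.064 over all genes. Ggps1, the geranylgeranyl diphosphate synthase, stood at -0.21 ± 0.081 (limma, adjusted p = 0.0905) and Fnta, a farnesyltransferase subunit, at -0.12 ± 0.047 (adjusted p = 0.0928).

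In F mice alone limma called 175 genes (1.2%), 80 higher (0.548%) and 95 lower (0.651%), and 15 of the 20 sterol genes were higher. That balance turned with scaling, to 177 higher and 74 lower by median of ratios and 158 and 91 by quantile normalization, and without the mice with pancreas transcripts it was 52 and 52. In M mice alone it called 35 genes (0.24%), 25 higher (0.171%) and 10 lower (0.0685%), and 14 of the 20 were higher. The medians of the 20 genes were 1.17 in F and 1.25 in M mice. In a test of the difference between the letters limma called no gene (0.0%; 561 at an unadjusted p under 0.05, smallest adjusted p = 0.255).

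The 48 high fat mice between the classes had no part in that contrast. Along the log2 Sqle value of these mice limma called 9 genes (0.0616%), all higher with Sqle, and all 9 encode sterol enzymes. Cyp51 rose by 0.88, Msmo1 by 0.84, Idi1 by 0.74, Fdps by 0.67 and Nsdhl by 0.61 per unit of log2 Sqle, and Dhcr7, Lss, Acat2 and Fdft1 by 0.51, 0.45, 0.40 and 0.39. No gene was called lower (0.0%, limma), and the fit had 629 genes at an unadjusted p under 0.05. Sqle and the other genes were read in the same libraries, so what sets a library apart is shared by them.

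The chow contrast asked whether the same genes go with Sqle without the high fat diet. High against low Sqle chow mice gave 50 calls (0.342%), 44 higher (0.301%) and 6 lower (0.0411%). Again 19 of 20 sterol enzyme genes were higher (median 1.11, beside -0.006 over all genes), and Tm7sf2 took the place of Ebp as the gene not called (0.42 ± 0.11, limma adjusted p = 0.12). Idi1 had a signal of 52.1 to 164 (median 78.0) in high Sqle chow mice and 11.7 to 39.2 (median 24.0) in low Sqle chow mice, without overlap. It rose by 1.70 ± 0.14 (limma, adjusted p = 1.46e-12).

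Of the 44 genes higher in the chow contrast, 35 were also among the 370 higher in the high fat contrast, which is 79.5% of the chow list and 9.46% of the high fat list. The 2 contrasts share no mice. Of these 35 genes, 23 belong to the lists of sterol synthesis, control and uptake. Tests of the difference between the diets called none of the 20 sterol enzyme genes, with Mvd at 2.53 ± 0.24 in high fat and 1.89 ± 0.18 in chow mice (adjusted p of the difference = 0.302). Over all genes that test called 4 (0.0274%), 2 higher (0.0137%) and 2 lower (0.0137%) in high fat minus chow mice. It called 23 higher and 3 lower by median of ratios, 27 and 4 by quantile normalization, and 0 and 0 without the mice with pancreas transcripts. Generation differed between the chow classes, with G11L1 in 9 of 24 high Sqle and 17 of 24 low Sqle mice (Fisher's exact test, p = 0.0415, adjusted 0.166), and it was a covariate of the fit.

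**Figure D2:**
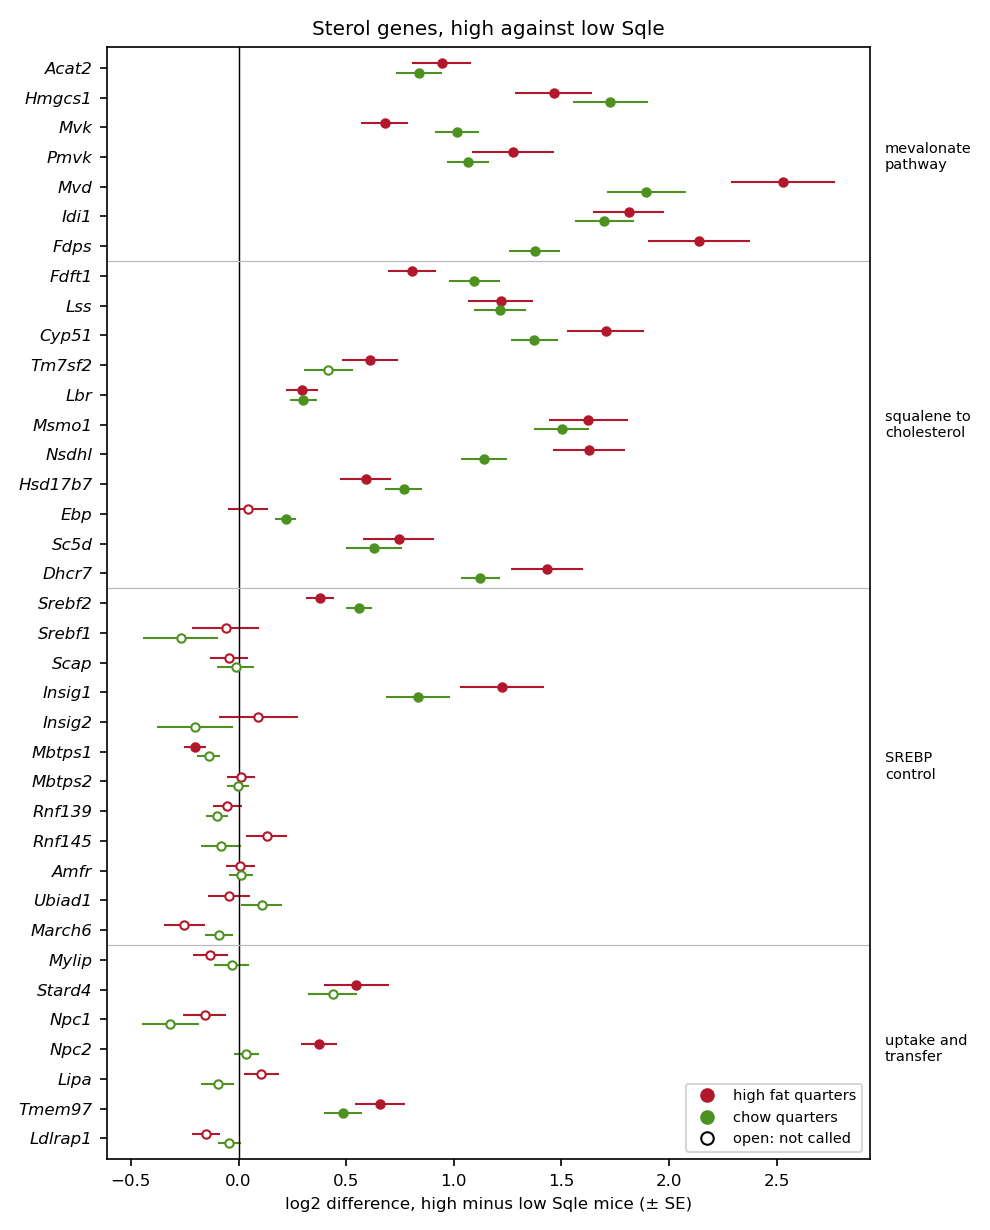
Log2 difference of high minus low Sqle mice (± SE) for the genes of sterol synthesis, SREBP control and sterol uptake, in high fat mice (red) and chow mice (green), with open points for genes not called. Of the 20 enzyme genes 18 are drawn, and in both diets 17 of these are called and lie right of 0.

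The high and low Sqle mice were then set against all 98 chow mice, which both contrasts share, so the values stand side by side. Only the high fat mice were selected on Sqle here. Selection as well as diet therefore enters these differences, and the part of each was not tested. In low Sqle mice all 20 sterol enzyme genes were below chow, from 13.6% of the chow level for Idi1 to 80.0% for Ebp. In high Sqle mice 11 of the 20 were below chow and 0 above. Across all genes, high Sqle mice differed from chow in 7510 (51.4%), 1769 higher (12.1%) and 5741 lower (39.3%), and low Sqle mice in 2829 (19.4%), 672 higher (4.6%) and 2157 lower (14.8%). For high Sqle mice, rescaling by median of ratios moved the median of all genes by over 0.1, to 0.006 against -0.102 before. It gave 3062 higher and 2696 lower genes for these mice. For low Sqle mice the median went from -0.0368 to 0.00568, with 1166 higher and 1240 lower genes.

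Fdps stood at 119% of chow in high Sqle and 26.4% in low Sqle mice, Mvd at 103% and 17.7%, Pmvk at 106% and 42.2%, Dhcr7 at 101% and 36.6%. Lss stood at 98.0% of chow in high Sqle and 41.4% in low Sqle mice, and Acat2 at 104% and 52.8%. None of these 6 genes was called against chow in high Sqle mice, and all 6 were in low Sqle mice.

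Other enzymes were below chow in the high Sqle mice too. Idi1 stood at 48.8% of chow in high Sqle and 13.6% in low Sqle mice (limma, adjusted p of the high Sqle mice against chow = 1.97e-09). Msmo1 stood at 52.1% and 16.7%, Cyp51 at 54.5% and 16.4%, and Mvk at 62.3% and 38.5%, all 3 called lower in both classes. No high Sqle mouse reached the chow median of Cyp51, Msmo1 or Mvk, and 1 of 23 passed that of Idi1, while 14 of 23 passed that of Fdps and 13 that of Mvd. Counted over the 20 genes, a high Sqle mouse had 0 to 15 above the chow median of its letter (median 5), and a low Sqle mouse 0 to 4 (median 0).

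After median-of-ratios rescaling 9 of the 20 genes were below chow in high Sqle mice and 1 above (Fdps, 129% of chow). Idi1 (52.8%), Msmo1 (56.4%), Cyp51 (59.0%) and Mvk (67.5%) stayed below. After quantile normalization 7 were below and 3 above, among them Fdps and Sc5d. All 20 were below chow in low Sqle mice under each of the 8 alternatives.

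**Figure D3:**
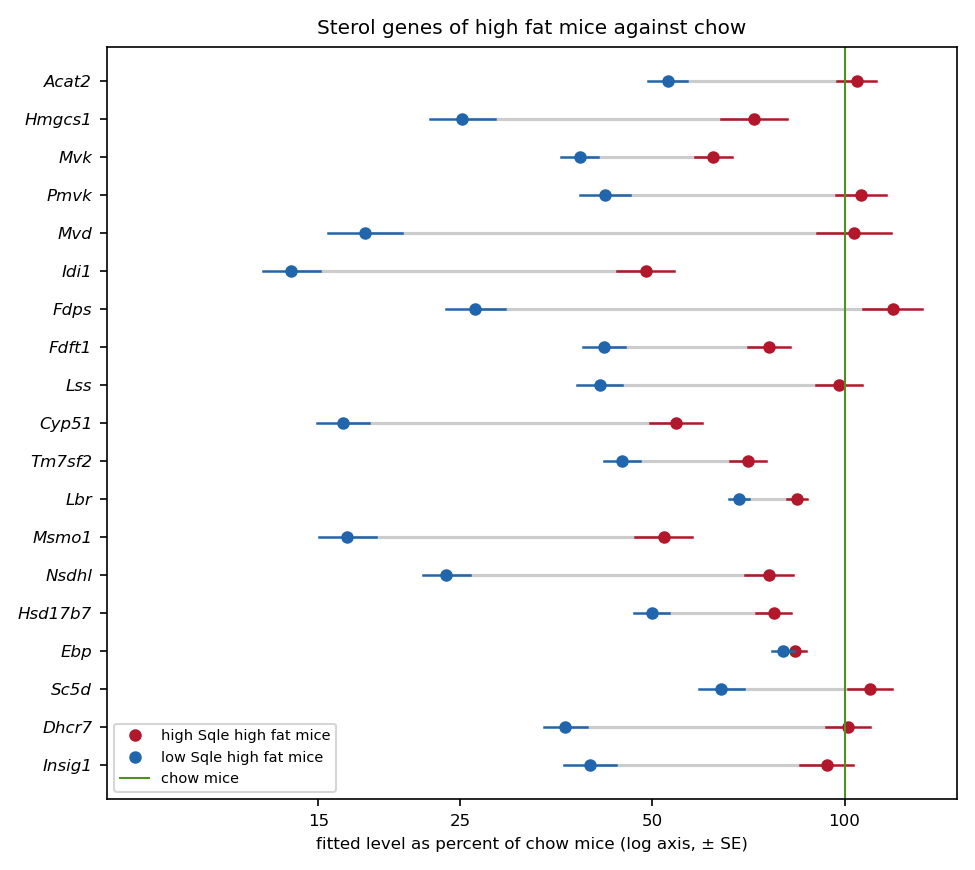
Fitted level of 19 sterol genes as a percent of the 98 chow mice (log axis, ± SE) in high Sqle (red) and low Sqle (blue) high fat mice. The chow mice were not selected on Sqle. Fdps, Mvd and Dhcr7 of high Sqle mice lie at 119%, 103% and 101%, whereas Idi1, Msmo1 and Cyp51 lie at 48.8%, 52.1% and 54.5%.

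Fatty acid synthesis moved in the same high fat mice. Of 18 genes of this list, 14 rose and 1 fell, with a median of 0.94, beside 2.53% of all genes higher and 6.2% lower. Fasn, the fatty acid synthase, had a signal of 38.1 to 1823 (median 381) in high Sqle mice and 31.2 to 297 (median 85.2) in low Sqle mice. The classes overlapped at the lower end, and 15 high Sqle mice lay above every low Sqle mouse. It rose by 1.70 ± 0.31 (limma, adjusted p = 0.000533).

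Acly, which makes cytosolic acetyl-CoA from citrate, had a signal of 44.6 to 592 (median 144) in high Sqle mice and 27.8 to 124 (median 51.5) in low Sqle mice, and rose by 1.33 ± 0.24 (adjusted p = 0.000445). Acss2, which makes it from acetate, rose by 1.41 ± 0.21, the acetyl-CoA carboxylase genes Acacb and Acaca by 1.44 ± 0.26 and 0.87 ± 0.19, and the elongase gene Elovl6 by 1.28 ± 0.31. The desaturase genes Fads1 (0.90 ± 0.16) and Fads2 (0.63 ± 0.16) rose as well. Scd1, the stearoyl-CoA desaturase, stood at 0.95 ± 0.33 and did not pass (adjusted p = 0.0613). Mlxipl, which encodes the sugar-responsive factor ChREBP, was the gene that fell (-0.42 ± 0.11, adjusted p = 0.0164).

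Of the 18 genes, a high Sqle mouse had 1 to 18 above the median of the high fat mice of its letter (median 16), and a low Sqle mouse 0 to 16 (median 4). In 17 of 23 high Sqle mice and 5 of 23 low Sqle mice more than 9 of the 18 genes were above it. The fits of F mice alone called 10 of the 18 higher and those of M mice alone 0, with medians of 1.17 and 0.78. Over all genes 0.548% were higher in F and 0.171% in M mice. The difference between the letters was not called for any gene. In 13 alternative fits 9 to 15 of the 18 were called higher, the fewest with a split at the median of Sqle.

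In chow mice, 1 of the 18 genes was called higher with Sqle (Acss2, 0.85 ± 0.18, limma adjusted p = 0.00825), beside 0.301% of all genes. The median of the 18 was 0.23. Fasn stood there at 0.38 and Pnpla3 at 0.56. The test of the difference between the diets did not call any of the 18 genes, with the smallest adjusted p at 0.0747 for Fads1. In the 48 mice between the classes 0 of the 18 were called along Sqle by limma (median 0.17). Against chow, 16 of the 18 were higher and 1 lower in high Sqle mice, and 3 higher and 4 lower in low Sqle mice. Of all genes, 12.1% were higher and 39.3% lower in high Sqle mice, and 4.6% higher and 14.8% lower in low Sqle mice. The chow mice of this comparison were not selected on Sqle.

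**Figure D4:**
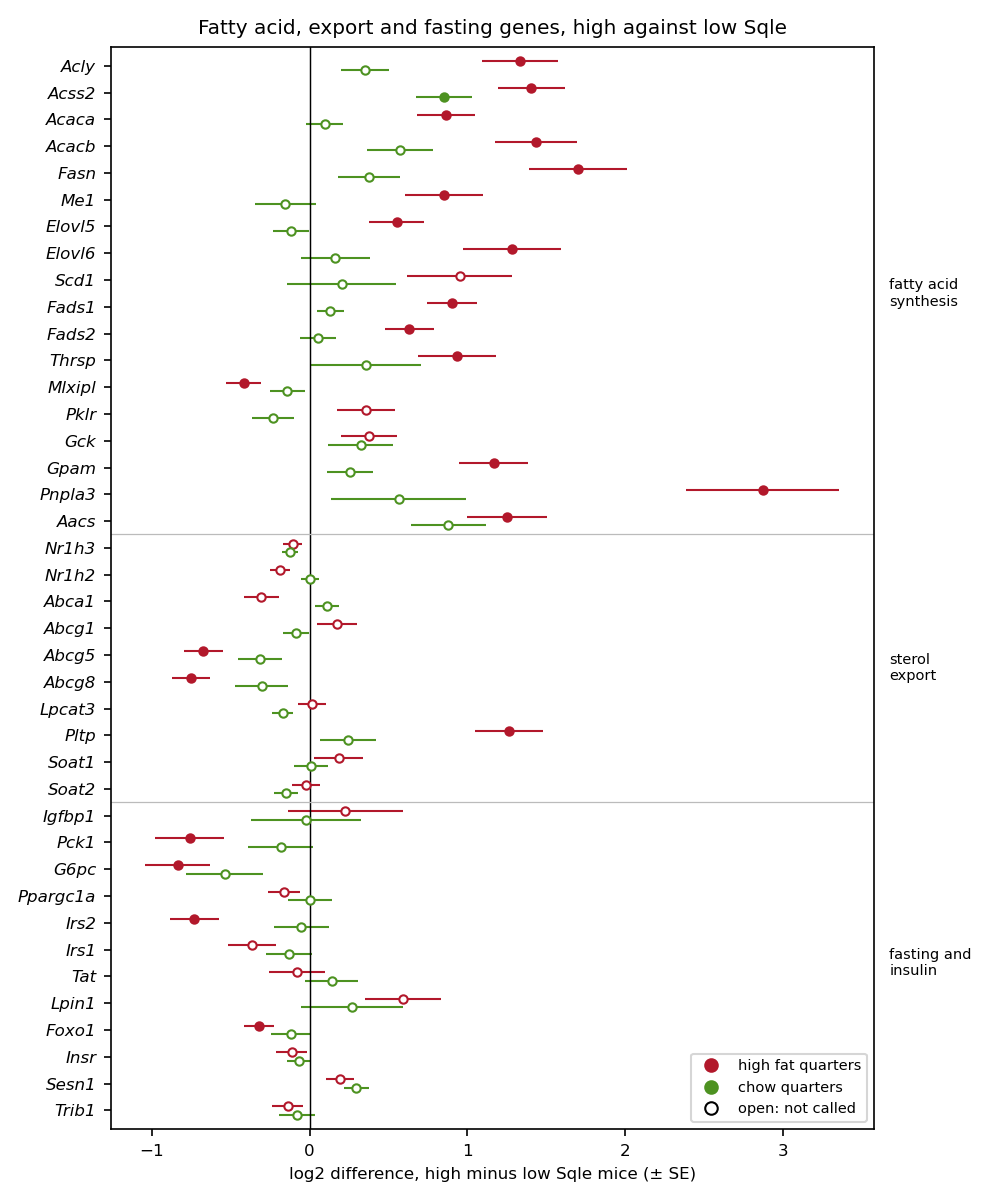
Log2 difference of high minus low Sqle mice (± SE) for genes of fatty acid synthesis, sterol export, and fasting and insulin signalling, in high fat mice (red) and chow mice (green), with open points for genes not called. In fatty acid synthesis 15 of 18 genes are called in high fat mice and 1 in chow mice.

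Genes of sterol export split. Of 10 targets of the sterol sensor LXR and export genes, 1 rose and 2 fell (median -0.066), beside 2.53% of all genes higher and 6.2% lower. Abcg8, which pairs with Abcg5 to pump sterol into bile, had a signal of 10.9 to 31.4 (median 20.3) in high Sqle mice and 21.9 to 70.4 (median 33.5) in low Sqle mice. The ranges overlapped narrowly, with 14 high Sqle mice below every low Sqle mouse, and all 23 below the median of the low Sqle mice. Abcg8 fell by 0.75 on the log2 scale (-0.75 ± 0.12, limma adjusted p = 9.4e-05) and its neighbour Abcg5 likewise (-0.67 ± 0.12, adjusted p = 0.000623). Both calls held in all 13 alternative fits.

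Pltp, a phospholipid transfer protein of lipoproteins, went the other way. It had a signal of 4.26 to 51.6 (median 21.5) in high Sqle mice, 3.38 to 30.0 (median 5.99) in low Sqle mice and 2.15 to 20.4 (median 5.63) in chow mice. It rose by 1.26 ± 0.21 (limma, adjusted p = 0.000205), with wide overlap of the classes. In the chow contrast Abcg8 (-0.30 ± 0.17, adjusted p = 0.655), Abcg5 (-0.31 ± 0.14, adjusted p = 0.573) and Pltp (0.24 ± 0.18, adjusted p = 0.758) did not pass.

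Beside 6.2% of all genes lower and a median of -0.064 over all genes, 5 of 13 bile acid genes fell. All 13 had a negative difference (median -0.23), and those called are given here. They were Cyp7b1, an oxysterol hydroxylase (-1.26 ± 0.40), Abcb4, the phospholipid pump of bile (-0.35 ± 0.096), Cyp27a1, a sterol hydroxylase (-0.33 ± 0.10), Nr1h4, the bile acid receptor FXR (-0.29 ± 0.088), and Baat, which conjugates bile acids (-0.26 ± 0.078). Cyp7a1, the rate-limiting enzyme of bile acid synthesis, stood at -0.52 ± 0.27 and did not pass (adjusted p = 0.206). Only 2 of the 13 were called after median-of-ratios rescaling, and 0 with library measures as covariates or a split at the median.

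Of 12 fasting and insulin genes, 4 fell, beside 6.2% of all genes. G6pc, the glucose-6-phosphatase, had a signal of 9.11 to 68.4 (median 33.2) in high Sqle mice, 18.0 to 153 (median 53.2) in low Sqle mice and 9.90 to 215 (median 84.0) in chow mice. It stood at -0.84 ± 0.20 (limma, adjusted p = 0.00936), with the classes overlapping over most of their range. Pck1, the other gluconeogenic enzyme (-0.76 ± 0.22), Irs2, an insulin receptor substrate (-0.73 ± 0.16), and Foxo1, a factor that insulin holds back (-0.32 ± 0.094), also fell. Of these 4 calls, 0 held with library measures as covariates or with a split at the median of Sqle, and 1 (G6pc) with terciles.

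Among 14 lipid droplet genes 3 rose, beside 2.53% of all genes. They were Cidec, a droplet fusion protein (1.56 ± 0.44), Cidea (1.30 ± 0.42) and Cd36, a fatty acid transporter (0.50 ± 0.17). Cidec had a median of 3.96 in high Sqle mice and 0.828 in low Sqle mice. All 3 calls were lost with terciles. In fatty acid oxidation and ketone synthesis 2 of 16 fell, among them Cpt2 (-0.29 ± 0.080), and in the lipoprotein list 3 of 11 (Scarb1 at -0.42 ± 0.088, Lipc at -0.40 ± 0.097 and Lcat at -0.25 ± 0.080). Over all genes 6.2% were lower, so 2 of 16 is close to that share, and nothing is read from either count. Each of these 5 calls was lost with library measures as covariates.

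Among called genes whose higher class averaged 10 pseudocounts or more, the largest difference was that of Chrna4, a subunit of nicotinic acetylcholine receptors (chromosome 2, 181018380 to 181043546). Its signal was 0.520 to 32.7 (median 8.06) in high Sqle mice, 0.0208 to 7.09 (median 0.189) in low Sqle mice and 0.0143 to 7.39 (median 0.404) in chow mice. All 23 high Sqle mice lay above the chow median and 13 above every low Sqle mouse. The difference was 3.94 ± 0.47 (limma, adjusted p = 1.48e-07), and the call held in all 13 alternative fits. In chow mice it stood at 1.29 ± 0.38 (adjusted p = 0.197), and the difference between the diets did not pass (adjusted p = 0.0703).

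Pnpla3, a lipid hydrolase of lipid droplets that SREBP1c raises, came next. It had a signal of 0.252 to 113 (median 21.8) in high Sqle mice and 0.113 to 14.3 (median 1.01) in low Sqle mice. In F mice the classes did not overlap (14.9 to 69.7 in high Sqle and 0.684 to 14.3 in low Sqle mice), and in M mice they did (0.252 to 113 and 0.113 to 2.89). The difference was 2.87 ± 0.49 (limma, adjusted p = 0.000218). Its relative Pnpla5 rose by 1.85 ± 0.40, and Fabp5, a fatty acid carrier, by 1.86 ± 0.35.

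Gprc5b, an orphan receptor (2.30 ± 0.43), and Adcy1, an adenylyl cyclase (1.96 ± 0.42), were further among the 12 largest rises. Krt20 (2.10 ± 0.56) and Sprr1a (1.96 ± 0.44), both genes of epithelia, and H2-Q1, a class I histocompatibility gene (1.93 ± 0.52), were also among them, as were Mvd and Fdps. Krt20 was at 0 to 16.0 (median 1.13) in high Sqle mice and at 0 to 9.23 (median 0.104) in low Sqle mice, and 5 of 13 alternative fits did not call it. H2-Q1 belongs to a family of near-identical copies, so its value is uncertain.

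The largest falls were those of Mup21, a major urinary protein (-1.52 ± 0.49), Cyp2c54, a cytochrome P450 (-1.44 ± 0.43), Nox4, an NADPH oxidase (-1.34 ± 0.25), Cyp7b1, and Slc22a7, an organic anion transporter (-1.24 ± 0.33). Asic5 (-1.21 ± 0.32), Capn8 (-1.15 ± 0.35), C8b (-1.12 ± 0.35), Adam11 (-1.06 ± 0.23), Mug1 (-1.06 ± 0.19), Mup3 (-1.03 ± 0.29) and Egfr (-1.03 ± 0.34) followed. Nox4 had a signal of 0.179 to 13.1 (median 3.34) in high Sqle mice and 0.527 to 21.8 (median 8.00) in low Sqle mice, with 8 high Sqle mice below every low Sqle mouse. Of these falls, 3 of the 12 were called with terciles, 3 with a split at the median and 2 with library measures as covariates, against 10, 8 and 9 of the 12 largest rises. Mup21, Mup3 and Cyp2c54 belong to families of near-identical copies, so their single values are uncertain.

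**Figure D5:**
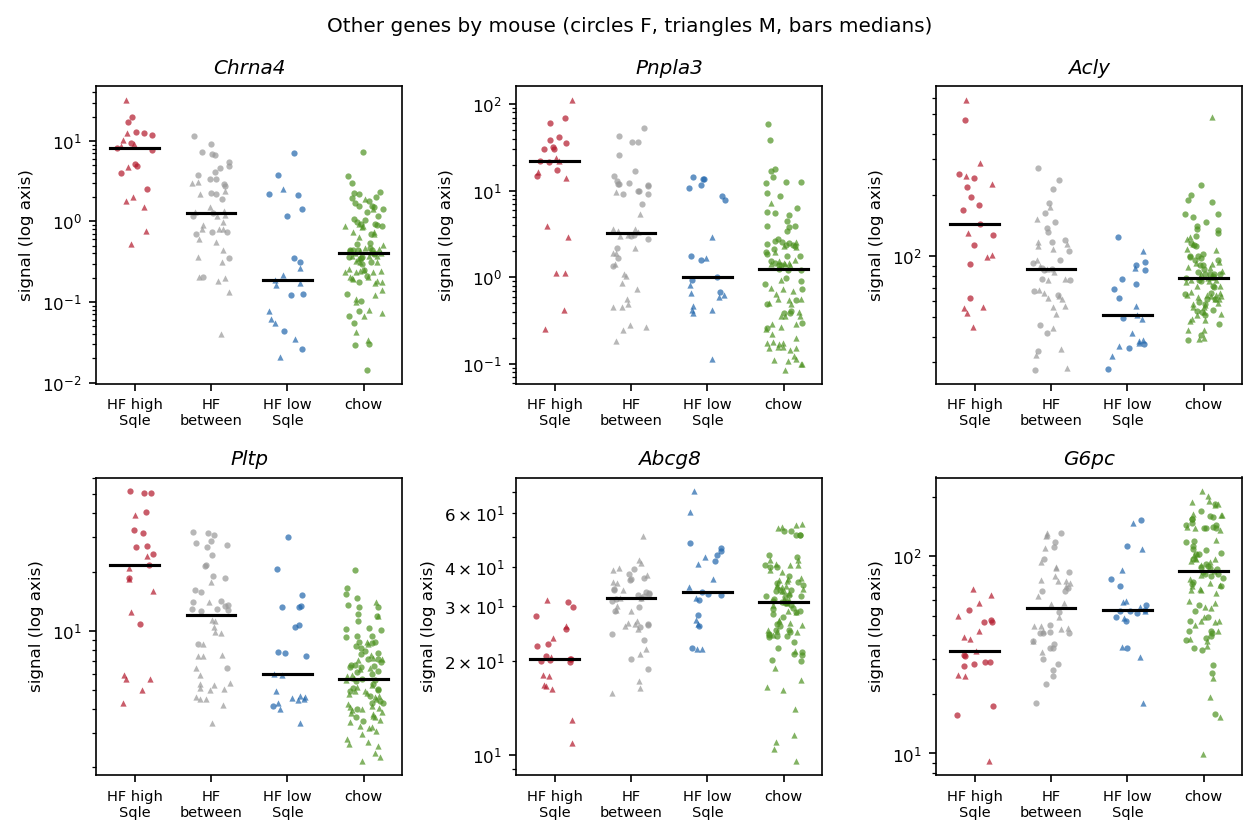
Upper-quartile normalized signal (log axis) of Chrna4, Pnpla3, Acly, Pltp, Abcg8 and G6pc in each mouse, for high fat mice with high Sqle, between and with low Sqle, and for chow mice. Circles are F mice, triangles M mice and bars medians. The medians of Chrna4 are 8.06 in high Sqle, 0.189 in low Sqle and 0.404 in chow mice, and those of Abcg8 are 20.3, 33.5 and 31.1.

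Of 6 hepatocyte markers, 1 fell, beside 6.2% of all genes, and nothing is read from 1 call. It was Cyp2e1 (-0.60 ± 0.13, limma adjusted p = 0.00416), lost with quantile normalization, a split at the median and library measures. The summed level of hepatocyte markers had a median of 19335 in high Sqle and 19278 in low Sqle mice. Of 7 Kupffer cell markers 0 were called, and of 7 markers of lipid-associated macrophages 0, although all 7 of these had a positive difference (0.49 to 1.29, median 0.72). Their summed level was 4.26 to 45.4 (median 9.07) in high Sqle mice and 3.69 to 20.6 (median 7.46) in low Sqle mice. The sign was not held in every alternative fit. The lowest differences were -0.05 for Gpnmb and -0.08 for Itgax, beside 0.04 for Trem2 and 0.10 for Cd9, with 0 calls. Col1a1 (0.95 ± 0.28), Col3a1 (0.76 ± 0.22) and Col1a2 (0.63 ± 0.21), fibrillar collagens, rose among 7 stellate cell markers, beside 2.53% of all genes. These calls were all lost without the mice with pancreas transcripts. The part of these cells in the results was not tested.

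Of 10 male-biased liver genes 1 was called lower, beside 6.2% of all genes (C8a, -0.71 ± 0.21, lost with terciles, a split at the median and library measures). Of 10 female-biased liver genes 0 were called. The median of the male-biased genes was -0.71 over both letters, -0.26 in F and -1.08 in M mice, and 0.12 along Sqle in the 48 mice between. That of the female-biased genes was 0.59 over both letters, 0.080 in F and 0.65 in M mice, and -0.30 along Sqle. Of 17 clock genes 2 fell, Nfil3 (-0.64 ± 0.15) and Hlf (-0.27 ± 0.079), and of 12 stress response genes 1 rose, Atf3 (0.83 ± 0.20), beside 6.2% of all genes lower and 2.53% higher. With a split at the median and with library measures as covariates all 3 calls were lost, and Hlf was called in 7 of 13 alternative fits. Of 14 acute phase genes 0 were called (median -0.22). Among 6 markers of sinusoidal endothelium Pecam1 (0.21 ± 0.045) and Lyve1 (0.80 ± 0.22) rose, beside 2.53% of all genes. Both calls were lost with terciles and with a split at the median. No call was made among 8 lymphocyte, 5 neutrophil, 4 bile duct and 5 red cell markers (limma, medians of 0.22, 0.28, 0.086 and 0.24).

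The summed level of 9 markers of pancreas, a neighbouring tissue, was 0.786 to 10.8 (median 1.34) in high Sqle mice and 0.588 to 141 (median 4.86) in low Sqle mice, and 1 low Sqle mouse passed 10 times the median of all mice. The classes were drawn again without the 3 high fat mice of that kind, 1 of them in the low Sqle class. Then 268 genes were higher and 554 lower, and the sterol counts were the same (8 of 8 and 11 of 12). Of the markers tested 1 of 8 was called lower in high Sqle mice (Cela1, -0.93 ± 0.29), beside 6.2% of all genes. The Cela1 call was lost without those mice and held in 6 of 13 alternative fits. The part of pancreas RNA in the other calls was not tested.

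Of 24 tested genes that start within 2 Mb of Sqle on chromosome 15, 4 were called, beside 8.73% of all genes. Fam83a (1.84 ± 0.34) and Atad2 (0.38 ± 0.10) were higher, and Zhx1 (-0.22 ± 0.069) and Fam91a1 (-0.24 ± 0.079) lower. Zhx1 was called in 5 and Fam91a1 in 4 of 13 alternative fits, and in neither rescaled fit. Atad2 was lost with terciles, a split at the median and library measures, and Fam83a with a split at the median. Fam83a had a signal of 0.0702 to 6.92 (median 0.470) in high Sqle mice and 0.0189 to 0.544 (median 0.105) in low Sqle mice. None of the 24 was called in the chow contrast by limma.

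Depth, estimated from the low values, was 13.8 ± 1.12 M reads in high Sqle and 14.2 ± 1.47 M in low Sqle mice (SD, n = 23 each, 2-sided permutation p = 0.359). Agouti coats were borne by 16 and 17 of the 23 mice. Across all 192 mice depth ran from 9.78 to 17.9 M reads. The library of 1 F mouse had Xist within the range of M mice, and it was a chow mouse outside both Sqle classes.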

How the data were processed

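Liver RNA of 192 mice was read in 384 samples, 2 technical repeats per mouse, and the deposited table has 1 column per mouse, so the mouse is the replicate. The values the authors deposited are an upper-quartile scaled signal per gene and mouse. The submitters' processing notes list CASAVA 1.8.0, with GRCm38 and mm10 as builds. Aligner, counter, strand and annotation are not given in the sources used here, so reads of overlapping or antisense genes cannot be told apart. IDs were matched to GENCODE M21 (21022 of 21454; 432 had no entry).

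Low values gave whole reads within 0.1 read for 78.4% to 82.5% of values up to 100 reads, so whole reads could not be regained and count models were not used. Estimated depth was 9.78 to 17.9 M reads (median 14.2 M), and precision rests on the number of mice.

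Values were tested as log2(value + 0.0629), with a pseudocount of 1/100 of 6.29, the median upper quartile. Genes above 0 in at least 46 mice and with a mean of at least the pseudocount were kept, and Sqle was left out, which left 14601. Folds are on this scale and understate changes of low genes. limma 3.58.1 (R 4.3.3) was fitted with letter and generation as covariates and a mean-variance trend. Fits of F or M mice alone had generation only, and the fit of the diet difference also had a letter by diet term. The fits against chow had no such term, so F and M mice share the same fitted difference there. Benjamini-Hochberg adjustment ran over all genes tested, and calls had an adjusted p under 0.05. The script was tested on simulated data. Permutation tests (SciPy 1.17.1) drew 100000 resamples. The p-values of limma and of the permutation tests judge a difference against the spread between mice.

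The members and the 27 gene lists were chosen with earlier results of these data known. Genes were named as all members of the 4 sterol lists, the 12 largest called differences in each direction whose higher class averaged 10 pseudocounts or more (predicted genes and pseudogenes passed over), up to 4 genes of smallest p in each other list, called genes of the interactions, and genes within 2 Mb of Sqle. Some genes that this rule names are not reported here. Further members of the fatty acid, bile acid and export lists and the genes called in both diets were chosen after their values were seen. Alternatives numbered 8 for all results and 14 for the Sqle contrasts. In the rescaled fits and in those without the mice with pancreas transcripts, mice were ranked on Sqle again, so class members could change.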

Additional observations from a re-analysis of the deposited data

Results flagged for a closer look

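In a test of the difference itself (interaction of Sqle class and diet, limma), 4 of 14601 genes (0.0274%) differed between the diets, 2 higher (0.0137%) and 2 lower (0.0137%) in high fat minus chow mice. Gprc5b, an orphan receptor, differed by 2.34 on the log2 scale (adjusted p = 0.0292). Its high minus low Sqle difference was 2.30 ± 0.43 in high fat mice and -0.00 ± 0.19 in chow mice. Pygb, a glycogen phosphorylase, differed by 0.62 (adjusted p = 0.0292), at 0.47 ± 0.099 in high fat and -0.14 ± 0.083 in chow mice. Zfp488, a zinc finger gene, differed by -0.46 (adjusted p = 0.0292), at -0.36 ± 0.077 in high fat and 0.10 ± 0.057 in chow mice. Chad, a cartilage matrix gene, differed by -1.28 (adjusted p = 0.0357), at -0.67 ± 0.17 in high fat and 0.62 ± 0.21 in chow mice. The test found 2104 genes at an unadjusted p under 0.05. Without the mice with pancreas transcripts 0 genes were called, whereas rescaling by median of ratios gave 23 higher and 3 lower, and quantile normalization 27 and 4.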

How the results depend on the processing

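The counts that moved are given as genes higher and lower, by setting. Rescaling by median of ratios gave 318 lower genes between high and low Sqle high fat mice, 177 higher in F mice, 4 lower in M mice, 2 lower along Sqle in the mice between, 23 higher in the diet difference, 3062 and 2696 for high Sqle mice against chow, and 1166 and 1240 for low Sqle mice against chow. Quantile normalization gave 446 lower between the high fat classes, 158 higher in F mice, 1 lower along Sqle, 12 lower in chow mice, 27 and 4 in the diet difference, 3227 lower for high Sqle mice against chow, and 1108 and 1105 for low Sqle mice against chow. Between the high fat classes, terciles gave 209 and 190, a split at the median 86 and 63, library measures as covariates 142 and 33, a fold of at least 1.5 185 and 92, and array weights 1370 lower. Without the mice with pancreas transcripts it was 554 lower, 52 and 52 in F mice, and 0 and 0 in the diet difference. In chow mice terciles gave 12 lower, a split at the median 11, and a fold of at least 1.5 gave 1. Without the generation covariate 10 were lower in chow mice, 16 higher along Sqle, and 6 and 7 in the diet difference. No filter gave 15 and 1 in M mice and 1 lower in the diet difference. A mean of at least 10 pseudocounts gave 1002 higher for high Sqle mice against chow and 1 lower in the diet difference. For the diet difference a pseudocount 10 times larger gave 9 higher, and one 10 times smaller 1 and 1. The causes were not tested. Over the named genes and these settings, 2059 values kept their side of the threshold, 220 lost it and 15 gained it. Of values called in either fit, 0 changed sign. Values called in neither fit counted as kept even where the sign changed, as for Gpnmb and Itgax. No paired analysis was possible because the numbers in the labels mark 2 technical repeats merged into 1 column per mouse. Mice were ranked on 1 gene read in the same libraries, and their genotypes were not used here.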

Other observations

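Genes outside the sterol lists also went with Sqle on both diets: 12 of the 35 genes higher in both contrasts (named after their values were seen). Rdh11, a retinol dehydrogenase, had a signal of 6.48 to 38.1 (median 16.4) in high Sqle and 2.18 to 12.2 (median 4.82) in low Sqle high fat mice, with 16 high Sqle mice above every low Sqle mouse. It rose by 1.61 ± 0.20 in high fat (limma, adjusted p = 2.33e-07) and 0.89 ± 0.14 in chow mice (adjusted p = 6.31e-05). Nfe2, known as a factor of platelet precursors, rose by 1.44 ± 0.18 in high fat and 1.45 ± 0.24 in chow mice, at low levels (medians of 0.186 in high Sqle and 0.0417 in low Sqle high fat mice). Sytl5, a vesicle transport gene, rose by 1.64 ± 0.24 and 0.95 ± 0.22, and Sgsm1 by 1.26 ± 0.19 and 0.89 ± 0.20.

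Mmab, an enzyme of cobalamin metabolism that shares its upstream stretch with Mvk, rose by 0.51 ± 0.10 in high fat and 0.69 ± 0.089 in chow mice. The acyl-CoA synthetases Acsl3 (0.68 ± 0.14 in high fat and 0.59 ± 0.13 in chow mice) and Acsl4 (0.58 ± 0.13 and 0.73 ± 0.15) rose as well. So did Cyp2r1, a vitamin D hydroxylase (0.54 ± 0.13 and 0.51 ± 0.11), Kctd7 (0.45 ± 0.11 and 0.62 ± 0.099), Pold2, a subunit of DNA polymerase delta (0.34 ± 0.11 and 0.46 ± 0.10), and Erg28, a scaffold of sterol demethylation enzymes in yeast (0.33 ± 0.098 and 0.49 ± 0.093). The twelfth was Acss2.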
